A study of Chlorocebus sabaeus with 3 samples.

Results

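Chemokines and cytokines at the ocular surface of the vervet monkey were read in limbus, cornea, and conjunctiva. The set comprised 40 genes that encode chemokine ligands, the chemokine receptor CXCR4, interleukins with their receptors and antagonist, colony-stimulating factors, TNF family ligands, and inhibitors of NF-kB. The genes were listed by symbol, with no threshold on their values. A gene was measured where the array annotation gave a probe set to that symbol alone, and where several did, the brightest by its mean on the log2 scale stood for the gene. This gave values for 39 of the 40 genes, out of 19775 genes named in this way on the array. CCL13 was not analysed here. The 39 genes had 79 probe sets in all, and 22 genes had more than 1.

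Total RNA of each tissue was amplified and hybridized to an Affymetrix human U133 Plus array, with 1 array for each of the 3 tissues (Chlorocebus sabaeus, with no treatment named). The study states that the tissues came from the same eye, but its methods give the age as a range of months, and the sex and the number of animals are not given in the sources used here. The limbus was the rim between the cornea and the conjunctiva, dissected with the upper part of its stroma. The cornea was its central disc with the upper part of the stroma, and the conjunctiva was taken with the Tenon tissue below it. Each value is therefore a sum over epithelial, stromal, vascular, and immune cells, and fewer cells of a type cannot be told apart from less RNA per cell. Values are normalized intensities on a linear scale, with a median over all probe sets of 49.0 (limbus), 48.8 (cornea), and 50.7 (conjunctiva). Without replicate arrays no error could be set beside a difference and no test was made. A gene is called apart where the ratio of 2 tissues is at least 2, the threshold of the study, and a value of 100 is used to mark probe sets well above the bulk of the array. Since the probes were designed on human sequence, values are compared between tissues and not between genes.

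Chemokines are small secreted proteins that bind G protein-coupled receptors on leukocytes and guide them along gradients from blood vessels into tissue. Cytokines such as interleukin-1, interleukin-6, and the TNF ligands act on epithelial, stromal, and immune cells, in large part through the transcription factors NF-kB and STAT, and NF-kB in turn induces its own inhibitors. The central cornea is transparent, holds no blood vessels, and has few leukocytes, whereas the conjunctiva is a vascular mucosa with resident lymphocytes, and the limbus lies at the end of the vessels.

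On the deposited scale, the conjunctiva had the highest value for most of the chemokine and cytokine genes, and the cornea had the lowest. The highest value fell to the limbus for 9 of the 39 members, to the cornea for 9, and to the conjunctiva for 21 (53.8%), while over all genes the shares were 24.9% (limbus), 38.4% (cornea), and 36.7% (conjunctiva). The cornea was lowest for 27 (69.2%) of the members, compared with 33.2% of all genes. The exceptions in the cornea were led by CXCL14, TNFSF10, and IL18, which had their highest values there, and IL1RN, which was lowest in the conjunctiva.

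Between the cornea and the conjunctiva, 4 members were higher in the cornea by 2-fold or more (5.31% of all genes were) and 13 were higher in the conjunctiva (5.68% of all genes). The 13 were CCL19, CSF1, CX3CL1, CXCL10, CXCL12, CXCL17, CXCL3, CXCL6, CXCL9, CXCR4, IL15, IL1R1, and TNFSF13B. The median log2 ratio of cornea over conjunctiva was -0.60 for the 39 members and 0.01 for all genes. Among the 17 members apart in these tissues, the limbus lay between them in 15 (88.2%), which is close to the share of 85.6% among all genes.

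Between the limbus and the cornea, 8 members were higher in the limbus by 2-fold or more (4.06% of all genes) and 2, IL18 and TNFSF10, were higher in the cornea (2.51% of all genes). The 8 were CSF1, CXCL10, CXCL11, CXCL12, CXCL17, CXCL2, CXCR4, and IL1R1, and for 5 of them the conjunctiva was higher still. Between the limbus and the conjunctiva, 2 members, CXCL14 and IL1RN, were higher in the limbus (2.62% of all genes), and 5, CXCL17, CXCL6, CXCL9, IL15, and IL1R1, were higher in the conjunctiva (2.31% of all genes). The median log2 ratio was 0.23 for limbus over cornea (-0.05 for all genes) and -0.23 for limbus over conjunctiva (-0.04 for all genes).

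No member was at least 2-fold above both other tissues in limbus, a rule met by 0.475% of all genes. In the cornea 2 members met it, IL18 and TNFSF10, compared with 1.89% of all genes. In the conjunctiva 5 members met it, CXCL17, CXCL6, CXCL9, IL15, and IL1R1, compared with 1.68% of all genes. These calls depended on the scale: after division of each array by its added hybridization controls, IL1RN and IL1R2 met the rule in the limbus (2.23% of all genes), no member met it in the cornea (0.546%), and only CXCL6 and IL1R1 met it in the conjunctiva (0.946%).

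**Figure D1:**
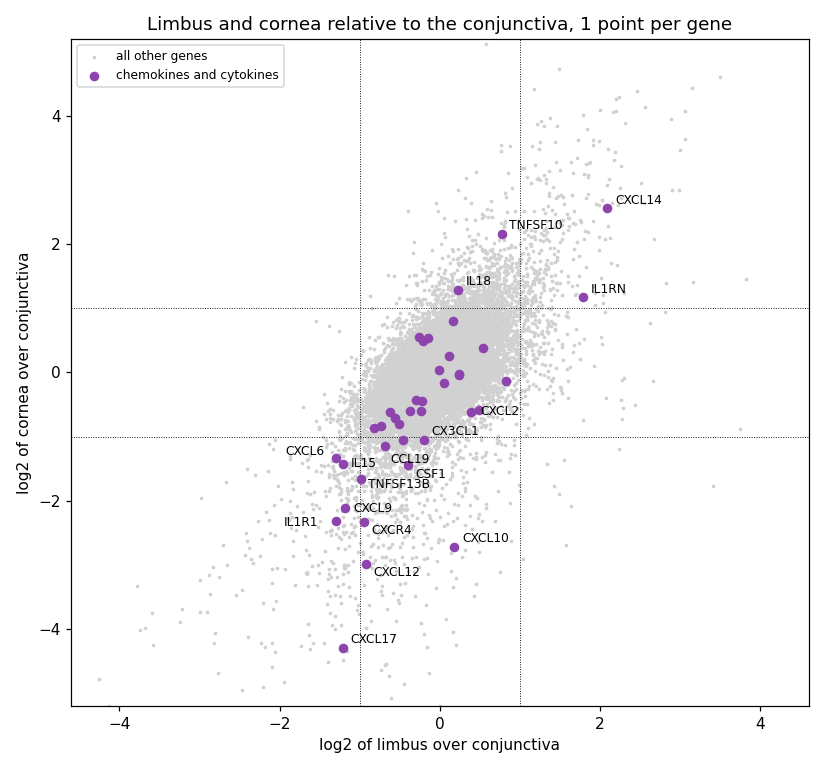
Log2 ratio of limbus over conjunctiva (horizontal axis) and of cornea over conjunctiva (vertical axis), 1 point per gene, from 1 array per tissue; purple points are the 39 chemokine and cytokine genes, grey points all other genes, and dotted lines mark 2-fold. The lowest cornea over conjunctiva ratios among the members are those of CXCL17, CXCL12, and CXCL10, and the highest are those of CXCL14 and TNFSF10; 24 genes lie outside the axes.

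These counts changed with the scaling of the arrays. The added hybridization controls had a geometric mean over 18 control probe sets of 735 (limbus), 1128 (cornea), and 902 (conjunctiva). Divided by these means, the median of all genes moved to 0.57 for limbus over cornea, 0.26 for limbus over conjunctiva, and -0.32 for cornea over conjunctiva. The splits became 15 higher and 0 lower for limbus over cornea, 4 higher and 2 lower for limbus over conjunctiva, and 2 higher and 17 lower for cornea over conjunctiva. Relative to the median of all genes, the median of the members differed by 0.28 (limbus over cornea), -0.20 (limbus over conjunctiva), and -0.60 (cornea over conjunctiva), compared with 0.28, -0.19, and -0.61 on the deposited scale. Dividing an array by 1 factor moves the log2 ratio of every gene alike. This difference could therefore not change except by rounding, and its match is no check of the members. After this division 15 members were highest in limbus, 6 in cornea, and 18 in conjunctiva. The same division moved all genes, so the splits and counts under it are not by themselves a result about the members.

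The tissues differed in the markers of the cells that make or receive these proteins. All 4 pan-leukocyte markers were highest in the conjunctiva, with a summed value of 527 (limbus), 265 (cornea), and 1351 (conjunctiva). PTPRC, the leukocyte common antigen, had 81.9 (limbus), 18.8 (cornea), and 352 (conjunctiva). All 6 T and NK cell markers, all 7 macrophage and dendritic cell markers, and all 4 B and plasma cell markers were highest in the conjunctiva too. Of the 4 markers of blood vessel endothelium, all were at least 2-fold higher in limbus than in cornea, 3 were highest in the conjunctiva and EMCN in the limbus, and their summed value was 1245 (limbus), 269 (cornea), and 1959 (conjunctiva). The 3 corneal epithelial markers, KRT3, KRT12, and ALDH3A1, were highest in the cornea, and the 5 goblet cell markers and the 4 gland markers in the conjunctiva. The cornea and conjunctiva arrays thus matched their labels, while these lists hold no marker of the limbus and do not check its array. Values on this scale are above 0 for every probe set, so they do not show which markers were present in a tissue. For GAPDH, the 3′ over 5′ ratio of its control probe sets, a sign of RNA length, was 3.12 (limbus), 4.58 (cornea), and 3.83 (conjunctiva), and for ACTB it was 11.8 (limbus), 11.2 (cornea), and 10.3 (conjunctiva), so the controls did not rank the tissues alike. The part of cell composition, vessels, RNA length, and scaling in the differences that follow was not tested.

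**Figure D2:**
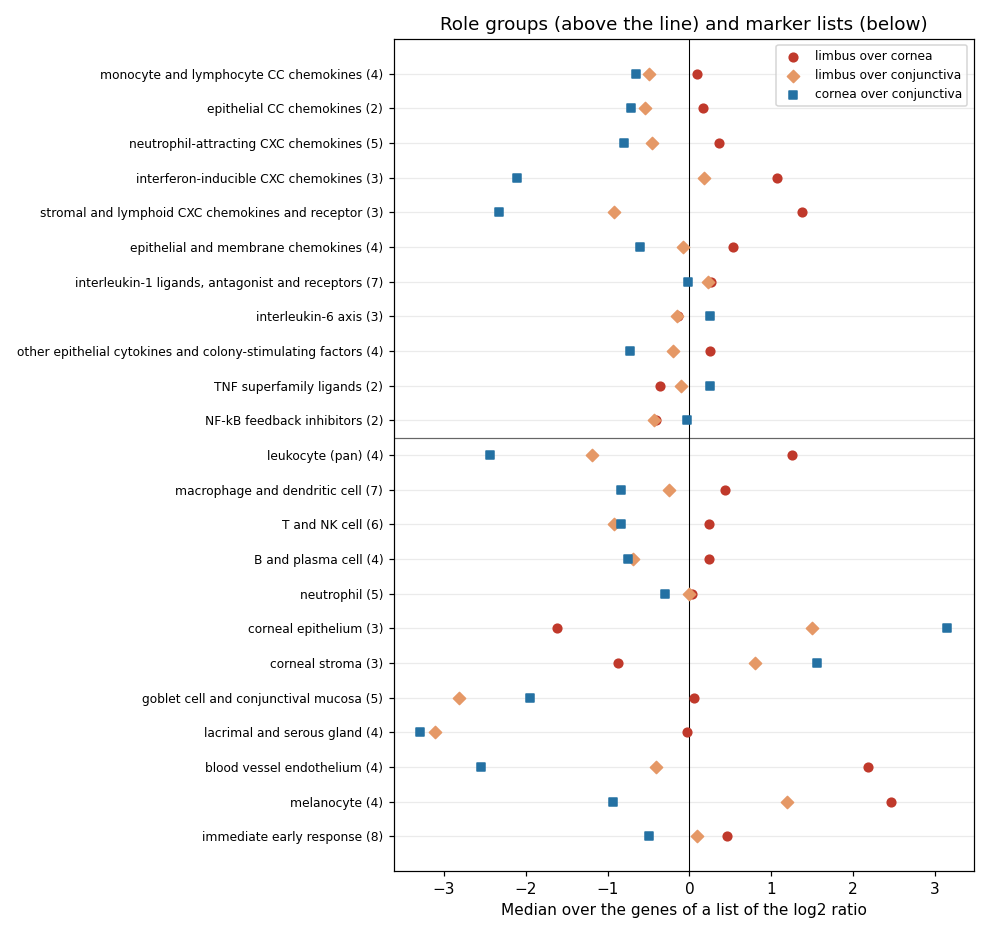
Median log2 ratio over the genes of a list (horizontal axis) for limbus over cornea (red circles), limbus over conjunctiva (orange diamonds), and cornea over conjunctiva (blue squares), from 1 array per tissue, with the number of genes in parentheses; role groups of chemokines and cytokines lie above the line and cell type and response markers below it. The cornea over conjunctiva median is -2.33 for CXCL12, CXCL13, and CXCR4 and -2.11 for the interferon-inducible chemokines, beside -2.44 for pan-leukocyte, -2.55 for vessel, -0.84 for macrophage and dendritic cell, -0.84 for T and NK cell, and -0.75 for B and plasma cell markers. It is -1.95 for goblet cell and -3.29 for gland markers. A median over 3 genes is the value of 1 of them, and CXCL13 itself has 0.38.

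Among the CC chemokines that attract monocytes and lymphocytes, CCL5 was above 100 on all arrays, CCL19 in the conjunctiva alone, and CCL2 and CCL8 on none. CCL19, which guides CCR7-bearing dendritic cells and T cells to lymphoid tissue, had values of 72.0 (limbus), 52.3 (cornea), and 116 (conjunctiva). It was 2.22-fold lower in cornea than in conjunctiva, the single ratio in this group of 4 genes to reach 2-fold. CCL5 (RANTES), an attractant of T cells and eosinophils, had 141 (limbus), 128 (cornea), and 173 (conjunctiva) on its brightest probe set, and both of its other probe sets stayed under 50 and were highest in the limbus. CCL2, the main monocyte attractant, reached 74.5 in the conjunctiva as its highest value, and CCL8, a related monocyte attractant, reached 50.5 in the cornea. CCR7, the receptor of CCL19, was under 100 as well, at 41.2 (limbus), 27.5 (cornea), and 65.3 (conjunctiva).

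The epithelial CC chemokines showed no 2-fold difference. CCL20, which draws CCR6-bearing dendritic and T helper cells to mucosal epithelium, had 61.4 (limbus), 57.0 (cornea), and 102 (conjunctiva). CCL28, the mucosal attractant of antibody-secreting cells through CCR10, had 58.9 (limbus), 50.2 (cornea), and 76.1 (conjunctiva), with CCR10 at 27.1 (limbus), 28.3 (cornea), and 55.1 (conjunctiva). Both ligands were highest in the conjunctiva by less than 2-fold.

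Neutrophil-attracting CXC chemokines, the ligands of CXCR1 and CXCR2, were also near the bulk of the array. Only CXCL2 of the 5 reached 100, with 207 (limbus), 104 (cornea), and 158 (conjunctiva), and its ratio of limbus over cornea of 2.00 was at the threshold. That probe set has probes that can match other transcripts, and the 2 other CXCL2 probe sets, at 27.6 and 17.1 in the limbus, showed ratios of 1.20 and 0.851 over the cornea. CXCL6, which also acts on CXCR1, had 18.6 (limbus), 18.1 (cornea), and 45.7 (conjunctiva). CXCL3 had 38.2 (limbus), 25.1 (cornea), and 52.4 (conjunctiva). Both had their highest value in the conjunctiva, at values close to or under the array median. CXCL1 and CXCL5 stayed under 60 in all tissues, and so did the value of CXCL8 (interleukin-8) in the limbus and the cornea, with 46.5 and 50.2, beside 60.2 for the conjunctiva. The 5 neutrophil markers had summed values of 764 (limbus), 324 (cornea), and 751 (conjunctiva). In the limbus and the conjunctiva, but not in the cornea, most of this sum was the calgranulin S100A9. It had 452 (limbus), 75.2 (cornea), and 456 (conjunctiva). The median log2 ratio of the list was 0.03 for limbus over cornea, and S100A12 and FCGR3B were lower in limbus than in cornea.

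Interferon-inducible CXC chemokines set the cornea apart. CXCL10 (IP-10), an attractant of CXCR3-bearing T cells that interferons induce, had values of 331 (limbus), 44.3 (cornea), and 292 (conjunctiva). The ratio was 7.48 for limbus over cornea and 1.14 for limbus over conjunctiva, and the corneal value lay under the median of its array, so the size of the first ratio is uncertain. With a pseudocount of 32 its log2 value was 2.25 in place of 2.90, and after division by the hybridization controls the ratio was 11.5. CXCL9 (MIG), which acts on the same receptor, had 80.9 (limbus), 42.5 (cornea), and 183 (conjunctiva). It was graded across the tissues, 1.91-fold higher in limbus than in cornea and 2.27-fold lower in limbus than in conjunctiva. CXCL11 (I-TAC), the other ligand of that receptor, was low, with 25.2 (limbus) and 18.0 (conjunctiva), and in the cornea it was 2.09-fold under the limbus and 1.49-fold under the conjunctiva. Both of its probe sets were highest in the limbus and lowest in the cornea. The receptor CXCR3 stayed under 100, with 60.8 (limbus), 63.6 (cornea), and 85.4 (conjunctiva). The 6 T and NK cell markers had a summed value of 431 (limbus), 370.3 (cornea), and 903 (conjunctiva), and CD3E and GZMA among them were lower in limbus than in cornea.

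The stromal chemokine CXCL12 (SDF-1) and its receptor CXCR4, an axis that retains progenitor cells and leukocytes near stromal and endothelial cells, had the same order of tissues. CXCL12 had 207 (limbus), 49.7 (cornea), and 391 (conjunctiva). It was 4.17-fold higher in limbus than in cornea and 7.87-fold lower in cornea than in conjunctiva, and the other probe set repeated the order with 135 (limbus), 53.2 (cornea), and 382 (conjunctiva). CXCR4 had 148 (limbus), 56.9 (cornea), and 286 (conjunctiva). All 3 of its probe sets were highest in the conjunctiva and lowest in the cornea, although the third was 1.21-fold higher in limbus than in cornea, in place of 2.60-fold. ACKR3 (CXCR7), the scavenging receptor of CXCL12, had 2157 (limbus), 433 (cornea), and 2468 (conjunctiva). The vessel marker PECAM1 had 462 (limbus), 45.9 (cornea), and 675 (conjunctiva) and so had the same rank order of tissues as CXCL12, CXCR4, and ACKR3, as did VWF and CDH5, while EMCN, with 223 (limbus), 41.6 (cornea), and 162 (conjunctiva), was highest in the limbus. This order is not particular to vessel genes. Of the goblet cell markers, MUC5AC, TFF1, and SPDEF had the order too, and TFF3 and AGR2 did not. Among all genes 2-fold apart between cornea and conjunctiva, the limbus lay between them in 85.6%. That share includes genes higher in the cornea as well as genes higher in the conjunctiva, so it is not the share with this order. The B cell attractant CXCL13 stayed under 20 on every array.

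**Figure D3:**
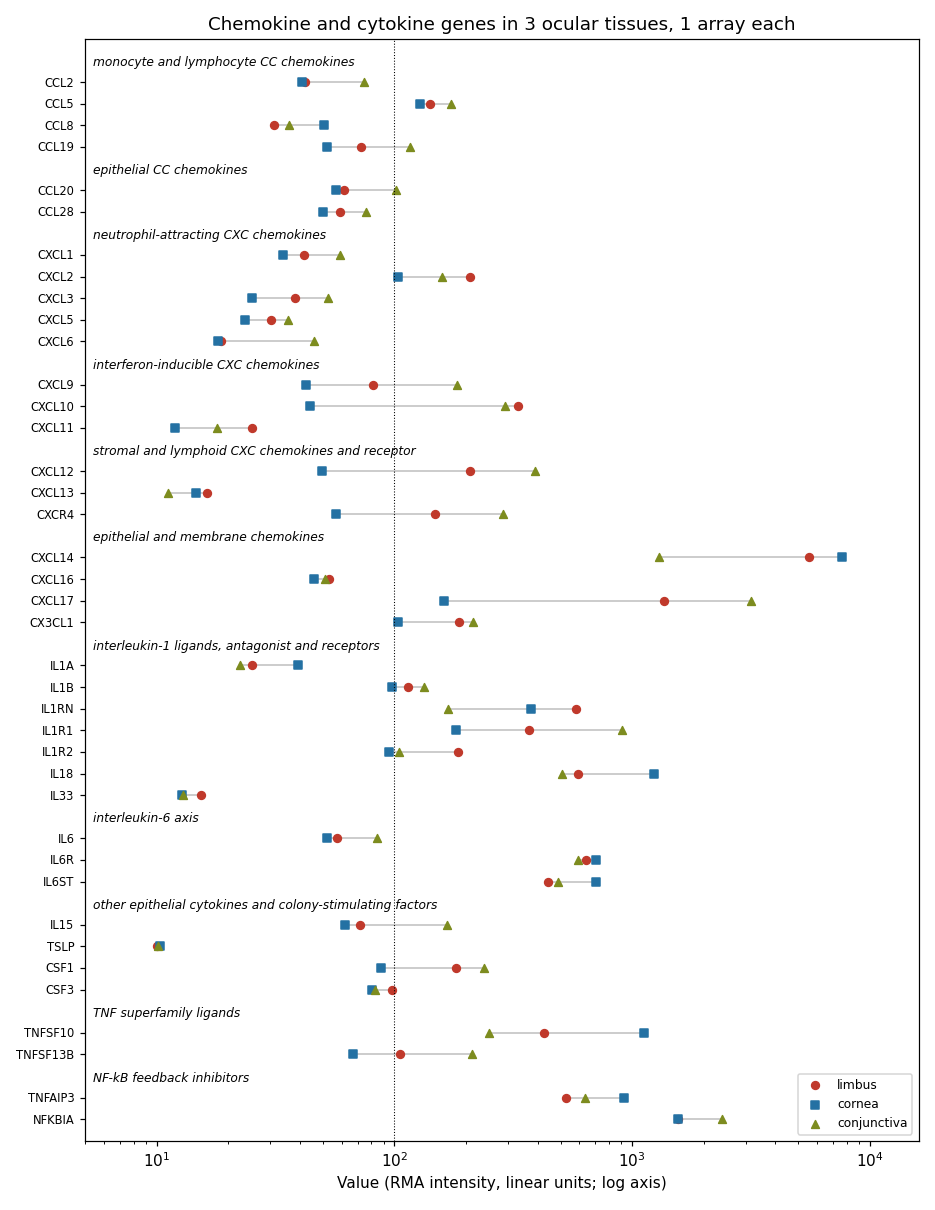
Value of each of the 39 genes (horizontal log axis, linear intensity units) in limbus (circles), cornea (squares), and conjunctiva (triangles), 1 array each, ordered by role; a grey line spans the 3 tissues and the dotted line marks 100. The cornea stands left of the other tissues for most genes and right of them for 9, among them CXCL14, IL18, IL6ST, TNFSF10, and TNFAIP3.

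Among the epithelial chemokines, CXCL17 had the widest difference of all members, and CXCL14 ran in the opposite direction. CXCL17, a chemokine of mucosal epithelium that attracts monocytes and dendritic cells, had 1363 (limbus), 162 (cornea), and 3163 (conjunctiva). Limbus was 8.43-fold above cornea and 2.32-fold below conjunctiva, and cornea was 19.6-fold below conjunctiva. CXCL17 had a single probe set, so no other probe set could be set beside it. CXCL14 (BRAK), a chemokine that epithelia make constitutively and that attracts monocytes and dendritic precursors, ran the other way, with 5517 (limbus), 7637 (cornea), and 1292 (conjunctiva). The limbus was 4.27-fold and the cornea 5.91-fold above the conjunctiva, while the limbus and the cornea were not 2-fold apart on this probe set. A similarly bright CXCL14 probe set had 4997 (limbus), 10295 (cornea), and 855 (conjunctiva), which puts the cornea 2.06-fold over limbus. The third had 153 (limbus), 178 (cornea), and 47.7 (conjunctiva), so all 3 were lowest in the conjunctiva and highest in the cornea. Divided by the hybridization controls, the brightest probe set had 6916 (limbus), 6241 (cornea), and 1321 (conjunctiva), so the order of limbus and cornea turned.

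CX3CL1 (fractalkine), a membrane-bound chemokine that also mediates adhesion, had 186 (limbus), 104 (cornea), and 214 (conjunctiva). The cornea was 2.06-fold below the conjunctiva, just past the threshold, while the other probe set, with 153 (limbus), 116 (cornea), and 151 (conjunctiva), showed 1.30-fold. Its receptor CX3CR1, carried by monocytes and resident macrophages, stayed under 30 in all tissues. CXCL16, a transmembrane chemokine and scavenger receptor, lay between 45.9 and 53.1 in all tissues.

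In the interleukin-1 family the antagonist and the signalling receptor ran in opposite directions against the conjunctiva, on 1 probe set of the antagonist, while both were higher in limbus than in cornea. The ligand IL1B differed by less than 2-fold. IL1B, the secreted ligand that macrophages and epithelia release in inflammation, had 114 (limbus), 97.5 (cornea), and 133 (conjunctiva), and its other probe set had the same order. IL1A, the ligand stored in epithelial cells, stayed under 40. IL1R1, the signalling receptor, had 369 (limbus), 182 (cornea), and 908 (conjunctiva). Limbus was 2.02-fold above cornea and 2.46-fold below conjunctiva, and the second IL1R1 probe set, with 45.3 (limbus), 39.5 (cornea), and 109 (conjunctiva), was also highest in the conjunctiva but showed 1.15-fold for limbus over cornea. IL1R2, the decoy receptor that binds the ligand without signalling, was highest in the limbus on both probe sets. The brighter had 185 (limbus), 94.8 (cornea), and 105 (conjunctiva), which is 1.95-fold over the cornea and 1.77-fold over the conjunctiva, short of the threshold.

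IL1RN, the receptor antagonist that blocks IL1R1, had 578 (limbus), 377 (cornea), and 168 (conjunctiva) on its brightest probe set, 3.45-fold higher in the limbus and 2.25-fold higher in cornea than in conjunctiva. The 4 other IL1RN probe sets stayed under 100. Their highest value was in the limbus for 3 of them, but the cornea was above the conjunctiva in only 2. The 2-fold differences in IL1RN thus rest on 1 probe set. Divided by the hybridization controls, this probe set was 2.35-fold higher in limbus than in cornea, and cornea over conjunctiva was 1.80. The accessory chain IL1RAP differed by less than 2-fold, with 94.6 (limbus), 109.7 (cornea), and 94.1 (conjunctiva).

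IL18, an interleukin-1 family cytokine that epithelia hold as a precursor and that induces interferon gamma in lymphocytes, was highest in the cornea, with 593 (limbus), 1239 (cornea), and 505 (conjunctiva). It was 2.09-fold lower in limbus than in cornea and 2.45-fold higher in cornea than in conjunctiva. After quantile normalization of the arrays, or division by the hybridization controls, the first ratio no longer reached 2-fold. Under the second of these scalings cornea over conjunctiva was 1.96 as well, and the cornea was highest under both. The inhibitor IL18BP had 112 (limbus), 73.7 (cornea), and 125 (conjunctiva). IL33, an alarmin of epithelial and endothelial nuclei, lay between 12.8 and 15.3 on its only probe set.

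In the interleukin-6 axis all differences were under 2-fold on the brightest probe sets. IL6 itself had 57.2 (limbus), 51.8 (cornea), and 84.5 (conjunctiva). IL6R, the ligand-binding chain, had 640.2 (limbus), 704 (cornea), and 592 (conjunctiva). IL6ST, the shared signalling chain gp130, had 441 (limbus), 707 (cornea), and 489.6 (conjunctiva). IL6 was 1.63-fold lower in cornea than in conjunctiva, and for IL6ST limbus over cornea was 0.624. Of the 3 IL6ST probe sets at 100 or more, 2 had their highest value in the cornea, and the other one in the conjunctiva. The partner chains of IL6ST were less even. LIFR, which forms the receptor of leukemia inhibitory factor with IL6ST, had 189 (limbus), 68.6 (cornea), and 602 (conjunctiva). OSMR, the partner for oncostatin M, had 282 (limbus), 80.5 (cornea), and 379.5 (conjunctiva). Both were lowest in the cornea and highest in the conjunctiva, in contrast to IL6ST on its brightest probe set.

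**Figure D4:**
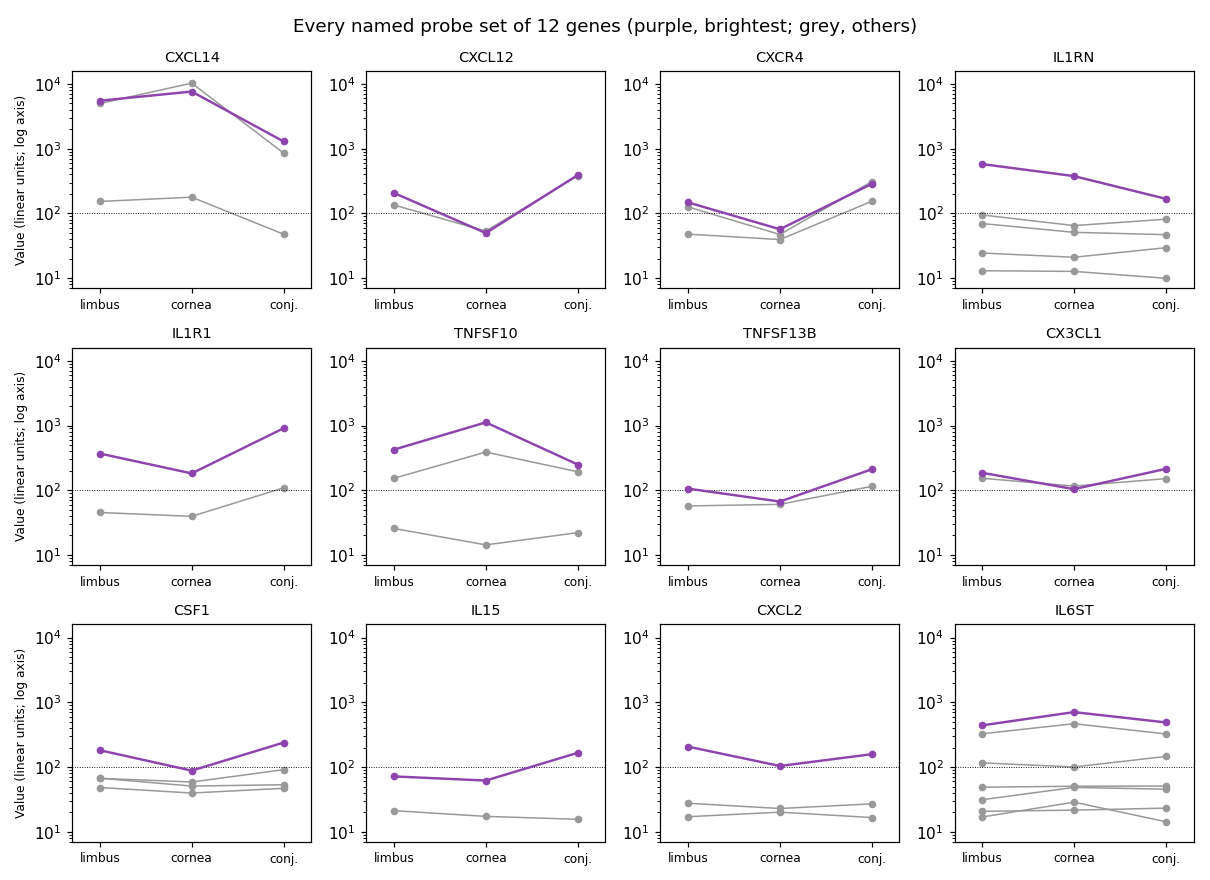
Every named probe set of 12 genes, as value (vertical log axis, linear intensity units) in limbus, cornea, and conjunctiva, 1 array each; the purple line is the probe set with the highest mean, grey lines are the others, and the dotted line marks 100. The probe sets of CXCL14, CXCL12, and CXCR4 run in parallel for the conjunctiva, while those of IL1RN, IL15, and CXCL2 other than the brightest are under 100 and not 2-fold apart.

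IL15, which sustains NK cells and memory T cells, had 71.7 (limbus), 61.9 (cornea), and 166 (conjunctiva). It was 2.32-fold lower in the limbus and 2.69-fold lower in cornea than in conjunctiva. The other probe set, at 21.2 (limbus), 17.3 (cornea), and 15.6 (conjunctiva), instead had the conjunctiva lowest, at values under the array median. Limbus was above cornea on both. Of the receptor chains, IL15RA had 136 (limbus), 144 (cornea), and 209 (conjunctiva), and IL2RG, the common gamma chain of lymphocytes, had 92.7 (limbus), 51.0 (cornea), and 226 (conjunctiva). IL7R, another lymphocyte receptor, had 89.3 (limbus), 35.7 (cornea), and 178 (conjunctiva). IL2RG and IL7R were lowest in the cornea and highest in the conjunctiva, whereas IL15RA was lowest in the limbus. TSLP, an epithelial cytokine of allergic inflammation, lay between 10.0 and 10.3, and its receptor chain CRLF2 between 70.0 and 80.4.

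CSF1, the growth factor of macrophages, had 182 (limbus), 88.1 (cornea), and 239 (conjunctiva), 2.07-fold higher in limbus than in cornea and 2.72-fold lower in cornea than in conjunctiva. The 3 dimmer CSF1 probe sets also had the cornea lowest, by 1.55-fold or less against the conjunctiva. CSF1R, its receptor on macrophages, had 153 (limbus), 113 (cornea), and 185 (conjunctiva), and IL34, the second ligand of that receptor, had 135 (limbus), 100.4 (cornea), and 149.5 (conjunctiva). CSF3, the granulocyte growth factor, lay between 80.4 and 97.9, and CSF2RB, the shared beta chain of GM-CSF and interleukin-3 receptors, had 105 (limbus), 19.7 (cornea), and 118 (conjunctiva).

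The TNF superfamily ligands differed in direction. TNFSF10 (TRAIL), a death-inducing ligand that interferons induce, had 424 (limbus), 1118 (cornea), and 249.5 (conjunctiva), 2.64-fold lower in limbus than in cornea and 4.48-fold higher in cornea than in conjunctiva. A second probe set at 100 or more had 153 (limbus), 389 (cornea), and 193 (conjunctiva), with the cornea highest again by 2.54-fold over the limbus and 2.02-fold over the conjunctiva, and a dim one, under 30, had the cornea lowest. Divided by the hybridization controls, limbus over cornea was 0.582 and no longer reached 2-fold, and the cornea was still highest. The death receptor TNFRSF10B was also highest in the cornea, by less than 2-fold, with 94.1 (limbus), 112 (cornea), and 80.6 (conjunctiva). TNFSF13B (BAFF), the survival factor of B cells, ran the other way, with 106 (limbus), 66.8 (cornea), and 211 (conjunctiva), and both of its probe sets were highest in the conjunctiva. It was 3.16-fold lower in cornea than in conjunctiva, and 1.98-fold lower in limbus than in conjunctiva, just short of the threshold. The B cell coactivator POU2AF1, a B and plasma cell marker, had 44.3 (limbus), 22.6 (cornea), and 189 (conjunctiva).

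The feedback inhibitors of NF-kB were expressed in all tissues and not 2-fold apart. NFKBIA, which holds NF-kB in the cytoplasm, had 1554 (limbus), 1561 (cornea), and 2381 (conjunctiva). TNFAIP3 (A20), a ubiquitin-editing enzyme that ends TNF and interleukin-1 signalling, had 526 (limbus), 925 (cornea), and 632 (conjunctiva). The highest tissue was thus the conjunctiva for the first and the cornea for the second, with 1.53-fold and 1.76-fold as the widest ratios.

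Of the chemokine ligands and receptors outside the set, 2 of 16 ligands (12.5%) and 5 of 15 receptors (33.3%) were at least 2-fold apart between some tissues, beside 13.9% of all genes. The ligands were CCL21, the lymphatic endothelial ligand of CCR7, with 182 (limbus), 79.6 (cornea), and 245 (conjunctiva), and CCL4, a T cell and monocyte attractant, with 99.1 (limbus), 56.2 (cornea), and 135 (conjunctiva). Of the receptors, 13 were highest in the conjunctiva (36.7% of all genes), and only ACKR1 and ACKR3 reached 100, while CCR1, CCR7, and CCR10 were 2-fold apart under it. ACKR1, the chemokine-binding protein of venular endothelium, had 212 (limbus), 59.4 (cornea), and 413 (conjunctiva). Of 34 other cytokine ligands and receptors, 11 (32.4%) were 2-fold apart between some tissues. For limbus over cornea 5 were higher and 0 lower, beside 4.06% and 2.51% of all genes. For limbus over conjunctiva 0 were higher and 4 lower, beside 2.62% and 2.31%, and for cornea over conjunctiva 1 was higher and 8 lower, beside 5.31% and 5.68%. Besides the receptor chains given above, these included IL10RA, a chain of the interleukin-10 receptor, with 102 (limbus), 47.8 (cornea), and 135 (conjunctiva), and TNFRSF1B, a TNF receptor of leukocytes, with 68.8 (limbus), 56.9 (cornea), and 131 (conjunctiva). IL11, a ligand that signals through IL6ST, had 47.2 (limbus), 78.8 (cornea), and 106 (conjunctiva).

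Some members are neighbours on the chromosome, and neighbours did not always share a pattern. In the gene order of the RefSeq vervet assembly mChlSab1.0.hap1, CXCL9, CXCL10, and CXCL11 are adjacent coding genes. All had their lowest value in the cornea, yet CXCL9 was highest in the conjunctiva and CXCL10 and CXCL11 in the limbus. CXCL1 and CXCL6 lie 1 coding gene apart and shared the order, lowest in the cornea and highest in the conjunctiva. IL1R1 and IL1R2 also lie 1 coding gene apart, and IL1R1 was highest in the conjunctiva and IL1R2 in the limbus. IL1A and IL1B are adjacent as well, with the highest value in the cornea for IL1A on its brightest probe set and in the conjunctiva for IL1B. The order of the genes was taken from that assembly alone, in which 36 of the 40 symbols were found.

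Of 40 other probe sets of the members, 11, from 8 genes, had a value of at least 100 in some tissue, and 9 of these were highest in the same tissue as the brightest probe set of the gene. The exceptions were 1 probe set each of CX3CL1 and IL6ST. In all, 15 of the 39 members stayed under 100 in every tissue, and ratios between such values are uncertain.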

How the data were processed

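The authors deposited linear intensities for 54675 probe sets on 3 arrays, with 0 missing values and 0 columns of other samples. According to their methods, the authors amplified the RNA in 2 rounds and normalized each array by RMA (justRMA) with a fixed pool of reference arrays. Differences of scale between arrays can therefore remain. The submitters' processing notes name RMA; its version is not given in the sources used here. No further normalization was applied.

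Probe sets were named from the platform annotation. Of these, 41097 had 1 symbol and were used, and 1801 had several and were not. Where several probe sets named a gene, the one brightest on average over the log2 values was kept. Ratios of linear values were computed with Python 3.11.15, numpy 2.4.6, and pandas 2.3.3, and plots were drawn with matplotlib 3.10.9. A gene was called at a ratio of at least 2 with no filter on level. All named members are given, with their values where they were 2-fold apart with at least 100 in the higher tissue, and otherwise with values or ranges. Genes of other lists were named by the same rule or, after their values were seen, as receptors, ligands, or markers that belong to a member. The members, lists, and alternatives were chosen with earlier results of these data known. The calls were tested on simulated data, which checks the code and not the unknown noise of these arrays. With 1 array for each tissue there is no replicate, no p-value is given, and precision is limited by the number of arrays. Alternatives, 10 in all, vary the pseudocount, threshold, level, scaling, and probe set. Sequences were not used here.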

Additional observations from a re-analysis of the deposited data

How the results depend on the processing

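On the deposited values 10 members were 2-fold apart for limbus over cornea, 7 for limbus over conjunctiva, and 17 for cornea over conjunctiva, and 7 were 2-fold higher in 1 tissue than in both others. Adding a pseudocount of 32 gave 6, 4, and 13, and 4 for the last count, and so lowered the calls that rest on low values. The shares of all genes fell as well, to 4.08%, 2.69%, 7.49%, and 2.57%. A threshold of 1.5-fold gave 20, 16, and 26, and 17, while 3-fold gave 3, 2, and 9, and 0. For the last count, the shares of all genes at 1.5-fold were 2.19% (limbus), 6.29% (cornea), and 5.31% (conjunctiva). At 3-fold they were 0.106% (limbus), 0.491% (cornea), and 0.501% (conjunctiva). Changes in the counts between settings are thus not by themselves results about the members. For the pairwise counts at these thresholds, and for the counts from other probe sets that follow, no share of all genes is given here. Those counts are therefore not read as results about the members. Over the probe sets of a gene, the median log2 ratio left 6 calls for limbus over cornea. Among the 22 members with a second brightest probe set, 4 were apart for limbus over cornea and 5 for cornea over conjunctiva, partly because fewer genes could be counted. Division by the hybridization controls gave 4 members higher in 1 tissue than in both others, of which CXCL6 and IL1R1 were among the 7 and IL1RN and IL1R2, in the limbus, were not. The remaining alternatives moved these counts by at most 1.5 times. Of 462 ratios of the 16 members past 2-fold with at least 100 under alternatives, 376 kept their side of the threshold. Of the rest, 53 no longer reached it, 28 newly did, and 5 that were past it on the deposited values changed direction. A change of direction was not counted for ratios under 2-fold on the deposited values. The 376 include all 48 ratios of the setting with at least 100 in the higher tissue. Those could not change, because the level does not enter a ratio. On its second brightest probe set IL1RN had a log2 ratio of -0.33 for cornea over conjunctiva, and IL15 had 0.45 for limbus over conjunctiva and 0.15 for cornea over conjunctiva. Without the probe sets that can match several transcripts, IL1RN had -0.27 for limbus over conjunctiva and -0.49 for cornea over conjunctiva. These probe sets had values under 100, and the cause was not tested. No paired analysis was possible because each tissue had 1 array.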

Other observations

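Genes of the NF-kB pathway moved in both directions. Of 19 genes, 4 (21.1%) were 2-fold apart between some tissues, beside 13.9% of all genes, and the median log2 ratio was 0.01 for limbus over cornea, -0.04 for limbus over conjunctiva, and -0.12 for cornea over conjunctiva. The 4 follow. NFKBIZ, a nuclear cofactor that NF-kB induces, had 1155 (limbus), 509 (cornea), and 1327 (conjunctiva). MYD88, the adaptor of interleukin-1 and Toll-like receptors, had 163 (limbus), 311 (cornea), and 133 (conjunctiva), and so was highest in the cornea with IL18. IRAK3, an inhibitor of that adaptor pathway in macrophages, had 63.4 (limbus), 30.6 (cornea), and 104 (conjunctiva). CHUK, a kinase of the pathway, had 112 (limbus), 93.7 (cornea), and 51.0 (conjunctiva).

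Of 8 early response genes, which tissue handling can induce along with cytokines, 2 (25.0%) were 2-fold apart between some tissues. The share of all genes was 13.9%. The 2 were lowest in the cornea: FOS had 209 (limbus), 39.6 (cornea), and 289.6 (conjunctiva), and JUN had 638 (limbus), 142 (cornea), and 515 (conjunctiva). The highest value of the 8 fell to the limbus for 3, to the cornea for 3, and to the conjunctiva for 2. ATF3 was highest in the cornea, by less than 2-fold, with 158 (limbus), 287 (cornea), and 189.9 (conjunctiva). The part of tissue handling in the cytokine values was not tested.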
